A study of Mus musculus with 24 samples.

Results

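The genes described here are those whose difference between the buccal (cheek-facing) and lingual (tongue-facing) part of the dental mesenchyme changed between the cap and the bell stage of the mouse mandibular first molar. They were found with the interaction of side with stage, the buccal minus lingual log2 fold change at the bell stage less the same at the cap stage, so that a positive value means a shift toward the buccal part. Of 56748 genes counted, 21931 had enough counts to be tested, and the interaction was called for 7137 of them (32.5%) at a Benjamini-Hochberg adjusted p under 0.05 in edgeR's quasi-likelihood test. The shift was toward the buccal part for 3180 genes (14.5%) and toward the lingual part for 3957 (18%). Within these, 2409 genes, 11% of those tested, had a side difference that appeared, vanished or reversed, where calling a side took an adjusted p under 0.05 together with a log2 difference beyond 0.5 either way. A side called at a single stage says only which stage passed both limits, and the change itself rests on the interaction.

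The tooth germs came from ICR mouse embryos without a genetic change. Cap-L and Cap-B are the lingual and buccal parts at E13, and Bell-L and Bell-B the same parts at E15, with 3 libraries in each of these 4 groups. Each germ was cut along its length with a needle and its epithelium was taken off with an enzyme, so that the border between the parts was set by hand. A further 6 libraries, Cap-L+2D and Cap-B+2D, are cap-stage parts kept for 2 days in culture, and they took no part in the interaction. The study's methods mention embryos from 3 pregnant mice, sequencing in triplicate and 2 biological replicates. They do not say whether the 3 libraries of a group are separate litters, so p-values measure the spread between these libraries, which may be technical.

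From the cap to the bell stage, the mesenchyme of the molar surrounds a folding epithelium. It forms the dental papilla, from which odontoblasts and pulp arise. It also forms the dental follicle, from which periodontal ligament, cementum and part of the alveolar bone arise. The buccal and lingual parts reach outward into jaw mesenchyme that holds muscle precursors, nerve, vessels and bone-forming cells. BMP, FGF, Wnt, Hedgehog and TGF-beta signals pass between epithelium and mesenchyme during these stages, and the transcription factors Msx1, Pax9, Barx1 and Lhx6 mark molar mesenchyme.

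The 12 libraries held between 21663852 and 35222686 counts, and the floor of 3 counts lay between 0.0837 and 0.138 CPM (the depth-scaled count unit of edgeR, here with TMM factors). Replicates of a group correlated at 0.9927 or above and libraries of different groups at 0.9794 or below. Cap-L replicate 2 stood furthest from its group, with a chi-square per degree of freedom of up to 9.84 against another replicate, and without it 7269 genes were called. The pairs of Cap-B libraries lay between 1.32 and 1.49, where 1 is sampling noise alone. Whether replicates are technical was not tested. All 17 transcription factors of the odontogenic list were tested, and their summed level lay between 4150 and 4190 CPM in Cap-L, 4180 and 4190 in Cap-B, 3340 and 3430 in Bell-L, and 3230 and 3250 in Bell-B. The interaction was not called for Msx1, Barx1 and Lhx6, with values of -0.03, 0.0037 and 0.0011. Osr2, which is known for lingual expression in early molar mesenchyme, was higher in every library labelled Cap-B than in every library labelled Cap-L (0.96 on the log2 scale). Dkk2 and Sfrp2, also known from the lingual side at the cap stage, were higher in the libraries labelled Cap-B too (0.45 and 0.38), and so was Bmp4, known from the buccal side (0.30). The labels were kept as given, and Cap-L and Cap-B stand throughout for the libraries so labelled. The study's sequencing results likewise list Osr2 with the cap-stage buccal genes. Its in situ images, in contrast, place Osr2, Dkk2 and Sfrp2 lingually. For Msx1 and Runx2 its text names the buccal side, but its figure legend puts the stronger signal lingually. Runx2 had a lingual cap-stage difference here, on the side of that legend and with the labels as given. A cap-stage side of Msx1 is not given here. As labelled, 851 genes were called on the same side at both stages without a called interaction. A further 127 widened and 446 narrowed a difference on 1 side, while 89 reversed to lingual and 36 to buccal. If the labels of the cap-stage parts were exchanged, every cap-stage side would turn and the classes would change, which was not tested. In bulk tissue, fewer cells of a type and less RNA per cell cannot be told apart, and this holds for every value that follows.

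At the cap stage 2341 genes were called buccal and 1539 lingual, and at the bell stage 1258 and 1482. Among the genes whose side difference appeared, vanished or reversed, a vanishing buccal difference had the most genes, 1022. A lingual difference vanished for 574 genes, appeared for 466 and took the place of a buccal difference for 89. A buccal difference appeared for 222 genes and took the place of a lingual difference for 36. The remaining called genes either widened (127 genes) or narrowed (446 genes) a difference present at both stages, or had no side called at either (4155 genes). Called absolute interactions exceeded 1 for 1348 genes and 2 for 367, and the median over all genes tested was -0.015. With all 24 libraries of the series in 1 fit, 2581 genes were called, and 23 of the 41 gene lists used here had over 1.5 times fewer calls. The counts of that fit are given below for only part of these lists.

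**Figure D1:**
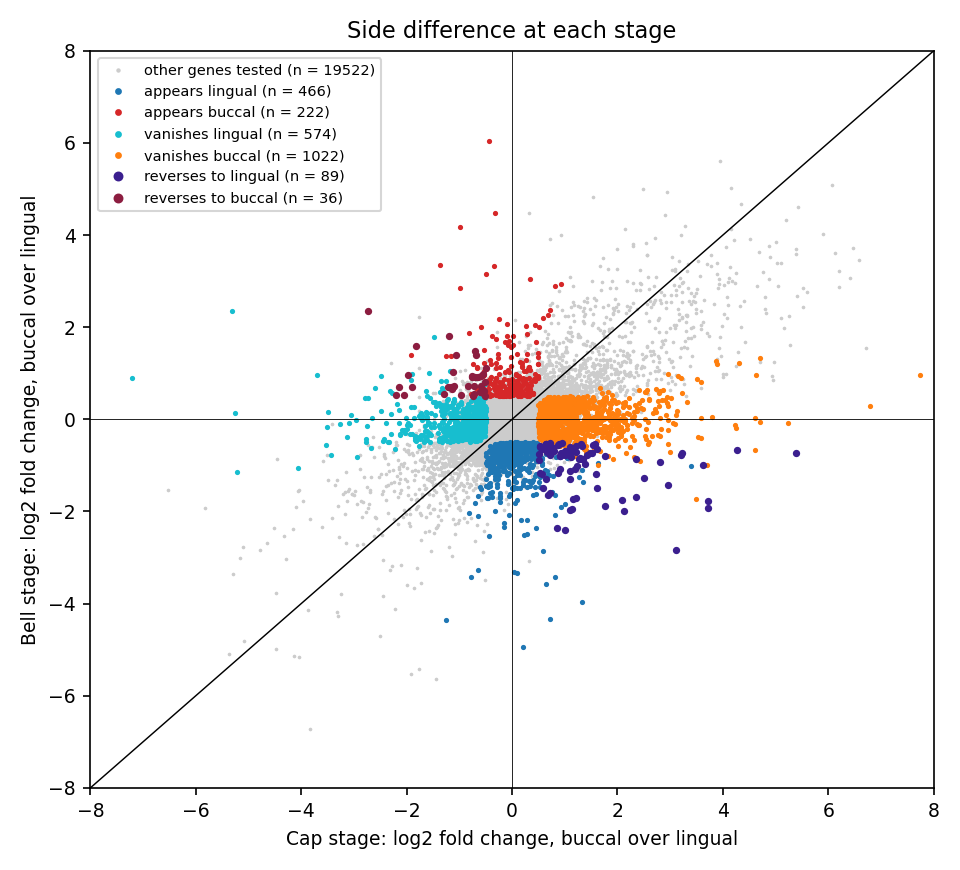
Each point is a gene tested, placed by its buccal over lingual log2 fold change at the cap stage (x axis) and at the bell stage (y axis), with 3 libraries in each group. Coloured genes (2409) had a difference that appeared, vanished or reversed, grey genes are all others tested, the diagonal marks an equal difference at both stages, and 1 gene lies outside the axes. The vanishing genes lie along the horizontal axis, the appearing ones along the vertical axis, and the reversing ones in the upper left and lower right.

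Stage changes were counted in each part for the classes, as a description, since the interaction that defines the classes is the difference of these changes. Of all genes tested, 15% rose and 5.56% fell in the lingual part, and 11.8% rose and 6.51% fell in the buccal part. From cap to bell, 351 of the 466 appearing lingual genes rose in the lingual part, while 146 rose and 70 fell in the buccal part, by calls from the same fit at the same limits as the side calls. Of the 1022 genes that lost a buccal difference, 535 rose in the lingual part and 378 fell in the buccal part. Of the 574 that lost a lingual difference, 273 rose in the buccal part and 191 fell in the lingual part. Among the 89 genes that reversed to lingual, 79 rose in the lingual part and 42 fell in the buccal part. Among the 36 that reversed to buccal, 29 rose in the buccal part and 18 fell in the lingual part.

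**Figure D2:**
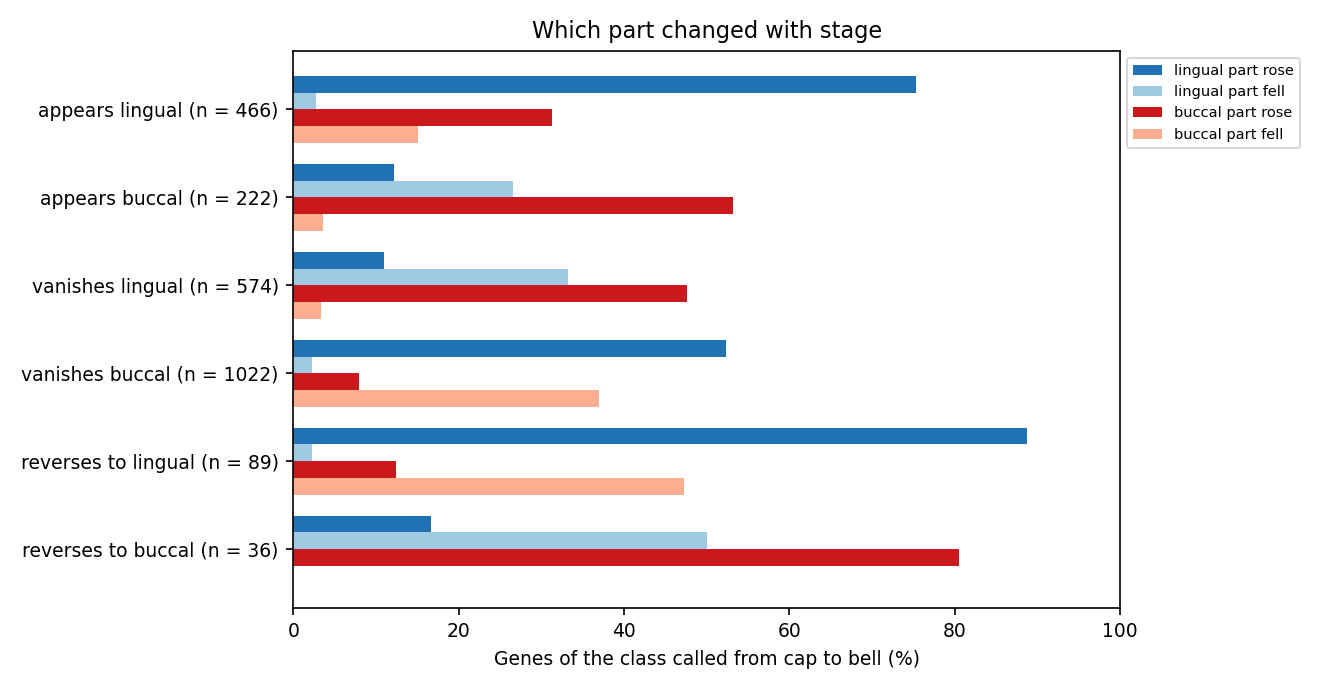
Bars give the share (%) of each class of genes called up or down from the cap to the bell stage in the lingual part (blue) and in the buccal part (red), and a gene can count in both parts. In the genes that reversed to lingual, 88.8% rose in the lingual part, and in those that reversed to buccal, 80.6% rose in the buccal part.

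The genes that reversed to lingual were led by Avpr1a, Mybpc1, Mrgprf and Scg2. Avpr1a, the vasopressin receptor V1a (chr10:122284404-122289357 in GRCm39, the build of all gene positions here), read 0.326, 0.781 and 0.499 CPM in Cap-L, 11.4, 11.4 and 9.67 in Cap-B, 4.96, 5.21 and 5.56 in Bell-L, and 3.7, 3.58 and 2.6 in Bell-B. Every Cap-B library was above every Cap-L library, and at the bell stage every Bell-L library was above every Bell-B library. Its log2 side difference went from 4.27 to -0.67, with an interaction of -4.94 ± 0.23 (SE) and an edgeR adjusted p of 1.09e-16. Scg2, secretogranin II of secretory granules (chr1:79412386-79417837), read 2.29, 2.34 and 2.32 CPM in Cap-L, 9.64, 9.89 and 9.83 in Cap-B, 29.8, 29.1 and 30.4 in Bell-L, and 9.13, 8.69 and 8.58 in Bell-B. A change from cap to bell was called in the lingual part, which rose, and not in the buccal part, and the parts did not overlap at either stage. Its interaction was -3.83 ± 0.11 (SE, edgeR adjusted p = 2.53e-21). Mrgprf, an orphan G protein-coupled receptor, went from 3.22 to -0.73 in side difference.

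Mybpc1, the slow-type myosin-binding protein C of muscle (chr10:88354141-88441014), read 1.38, 0.642 and 0.998 CPM in Cap-L, 10.8, 13.3 and 12.2 in Cap-B, 34.9, 35 and 36.4 in Bell-L, and 17.5, 18.8 and 17.5 in Bell-B. It rose in both parts and more in the lingual one, so that the higher part changed, with an interaction of -4.62 ± 0.16 (SE, edgeR adjusted p = 4.93e-20). Of 31 skeletal muscle contractile genes tested, 29 were called buccal at cap and 29 at bell, and Mybpc1 was the 1 called lingual at the bell stage. Of all 21931 genes tested, 2341 were called buccal at cap and 1258 at bell, and 1482 were called lingual at bell. The summed level of the contractile list was between 60 and 62.6 CPM in Cap-L and 413 and 416 in Cap-B, and between 256 and 266 in Bell-L and 1690 and 1750 in Bell-B. The contractile sum was thus higher in the buccal part at both stages, in every library.

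Signal and guidance genes were also among those that reversed to lingual. Wnt11, a ligand of noncanonical Wnt signalling, went from 0.64 to -1.29 with an interaction of -1.92 ± 0.10 (SE), and its means were 15.3 ± 1.88 and 24 ± 0.873 CPM (SD, n = 3) at cap, then 39.5 ± 1.76 and 16.2 ± 1.36 at bell, lingual part first. Epha4, an ephrin receptor, fell in the buccal part, with no change called in the lingual part, and went from 0.69 to -0.59. Tnn, the extracellular matrix protein tenascin N, read 45.2, 44 and 48.5 CPM in Cap-L, 127, 126 and 129 in Cap-B, 26.9, 26.3 and 26.9 in Bell-L, and 16.4, 15 and 17.1 in Bell-B. It fell in both parts and more steeply in the buccal one, with an interaction of -2.20 ± 0.072 (SE). Lum, the keratan sulfate proteoglycan lumican, rose in both parts and went from 0.64 to -0.53.

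The 36 genes that reversed to buccal held genes of growth factors and of mineralized and cartilage matrix. Fgf3, a growth factor that dental mesenchyme makes (chr7:144391820-144398173), read 7.07, 5.94 and 5.38 CPM in Cap-L, 1.57, 1.81 and 1.51 in Cap-B, 9.29, 8.53 and 8.21 in Bell-L, and 15.6, 13.3 and 13.1 in Bell-B. Cap-L was above Cap-B and Bell-B above Bell-L without overlap, and the interaction was 2.60 ± 0.17 (SE, edgeR adjusted p = 3.57e-13). Ano1, a calcium-activated chloride channel (chr7:144142286-144305711), read 19.4, 18.2 and 21.4 CPM in Cap-L, 4.66, 5.16 and 4.42 in Cap-B, 24.9, 22.7 and 23 in Bell-L, and 33.9, 33.8 and 33.8 in Bell-B. The buccal part rose from the lowest level of the 4 groups to the highest, with an interaction of 2.57 ± 0.10 (SE, edgeR adjusted p = 3.76e-18). Nptx1, the neuronal pentraxin 1, instead fell in the lingual part and rose in the buccal part, from -1.21 to 0.70. Pdgfc, a platelet-derived growth factor, went from -0.51 to 0.80.

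Col9a1, a chain of cartilage collagen IX (chr1:24216691-24291765), read 9.03, 9.04 and 8.48 CPM in Cap-L, 1.8, 2.19 and 1.99 in Cap-B, 2.23, 1.9 and 1.8 in Bell-L, and 3.53, 2.9 and 3.21 in Bell-B. Its loss in the lingual part was larger than its gain in the buccal part, and the interaction was 2.86 ± 0.19 (SE, edgeR adjusted p = 2.62e-13). Spp1, which encodes osteopontin of mineralized matrix, read 2.72, 2.87 and 2.28 CPM in Cap-L, 0.784, 0.903 and 0.557 in Cap-B, 1.91, 1.53 and 1.87 in Bell-L, and 5.67, 4.78 and 5.61 in Bell-B. Cap-L was above Cap-B and Bell-B above Bell-L, at levels of a few CPM, and 18.8% of its exon length overlaps another gene, which the counting left out. Its interaction was 3.42 ± 0.25 (SE, edgeR adjusted p = 2.46e-12). Dmp1, the dentin matrix protein 1, went from -0.76 to 0.94, and Acan, the cartilage proteoglycan aggrecan, from -0.65 to 0.93.

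**Figure D3:**
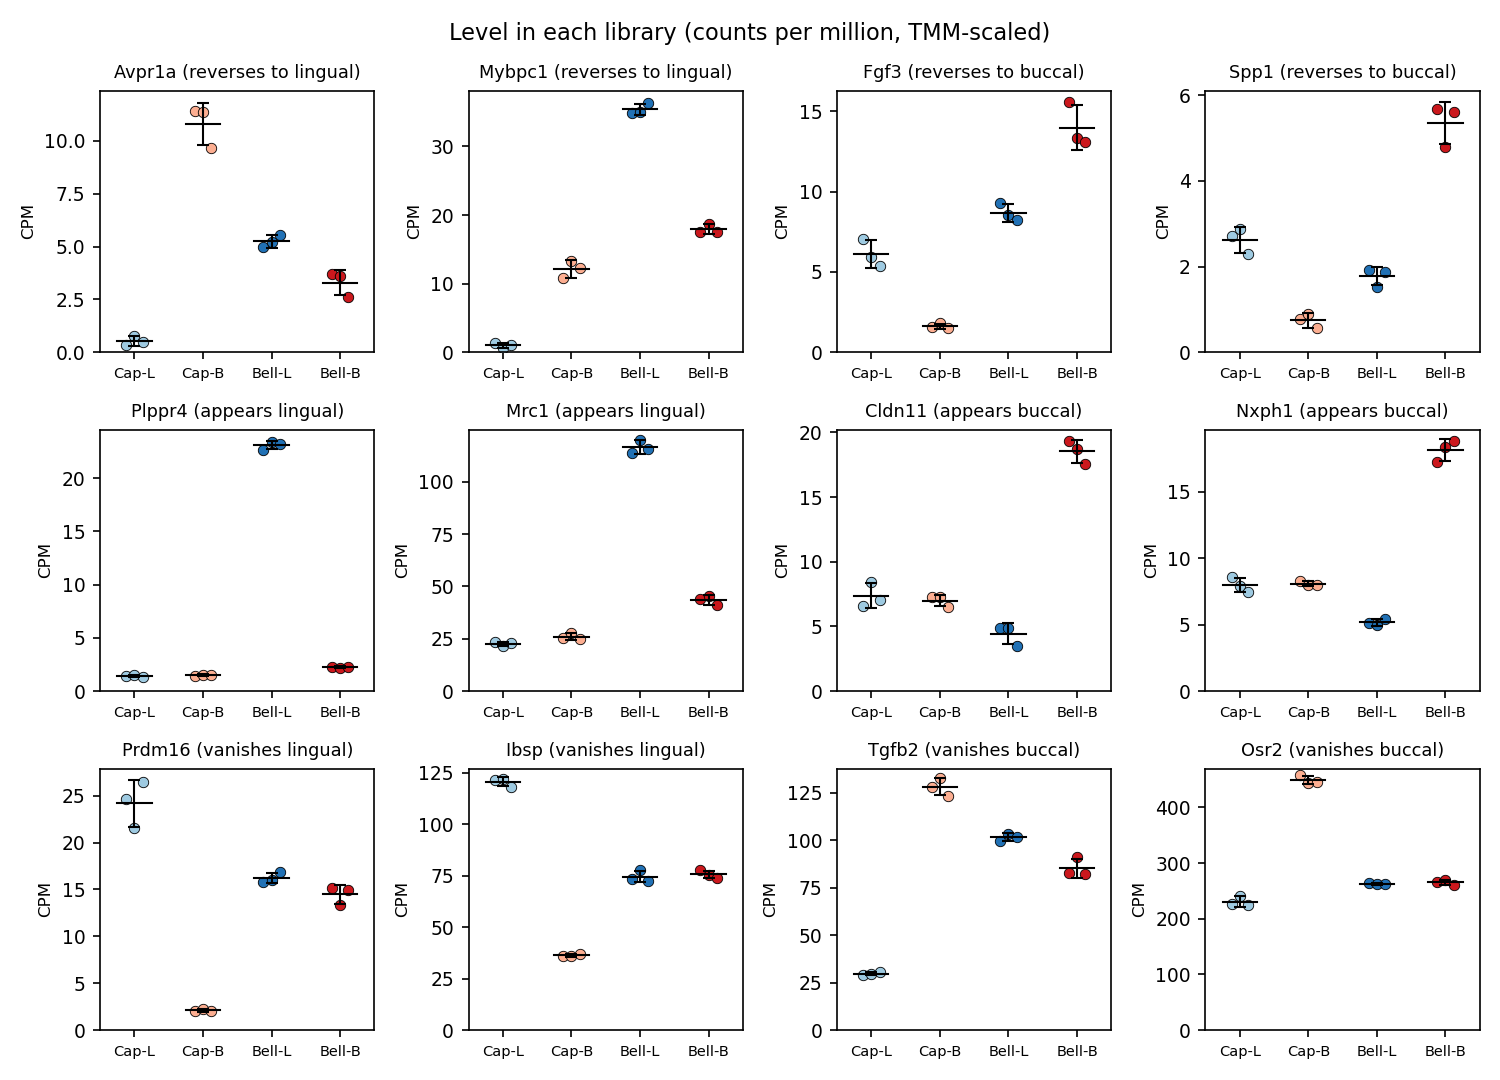
Points are single libraries and bars the mean and SD of 3 libraries in CPM (y axis, from 0) for each part and stage (x axis), with 1 panel a gene and its class in the title. In the top row the higher part changes between the stages, in the middle row the parts come apart at the bell stage, and in the bottom row a cap-stage difference is lost or nearly so.

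Most osteoblast and mineralization genes were lingual at the cap stage, with 12 called lingual and 2 buccal, and fewer at the bell stage, with 5 and 3. Of all 21931 genes tested, 1539 were called lingual and 2341 buccal at cap, and 1482 and 1258 at bell. The summed level of the osteoblast list, unlike its calls, was higher in the buccal part at cap. It was between 6410 and 6730 CPM in Cap-L and 8330 and 8670 in Cap-B. At the bell stage it was between 11100 and 11700 in Bell-L and 11800 and 12200 in Bell-B. Of 15 tested, 13 were called by the interaction, 10 toward buccal and 3 toward lingual, where 32.5% of all genes tested were called, and the median side difference went from -1.09 to 0.022. Ibsp, which encodes bone sialoprotein (chr5:104447037-104459335), read 122, 122 and 118 CPM in Cap-L, 36, 35.9 and 37.2 in Cap-B, 73.5, 77.5 and 72.3 in Bell-L, and 77.6, 75.2 and 73.9 in Bell-B. The lingual part was above the buccal part in all cap libraries, and at the bell stage the ranges of both parts overlapped, after a fall in the lingual and a rise in the buccal part. The interaction was 1.75 ± 0.059 (SE, edgeR adjusted p = 4.75e-20). Runx2 and Sp7, the transcription factors of the osteoblast lineage, went from -0.86 to -0.16 and from -1.17 to -0.18. Mmp13, the collagenase 3 of bone and cartilage turnover, rose in both parts, from 1.7 ± 0.183 to 8.95 ± 0.839 CPM (SD, n = 3) in the lingual part and from 0.249 ± 0.144 to 12.4 ± 0.861 in the buccal part. Its Cap-B level lay near the floor, which was between 0.119 and 0.138 CPM in those libraries. The 3 genes toward lingual were Col1a1, Col1a2 and Omd, and Alpl, the tissue alkaline phosphatase, kept a lingual difference (-1.19 to -1.01).

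Cartilage genes followed the same direction, with 9 of 16 called (32.5% of all genes) and all 9 toward buccal (14.5% of all genes). The median side difference went from -0.68 to -0.13. Col2a1, the main collagen of cartilage, read 230.4, 245 and 244 CPM in Cap-L, 116, 112 and 115 in Cap-B, 34, 30.7 and 30.5 in Bell-L, and 31.1, 29.7 and 31.8 in Bell-B. Both parts fell from cap to bell, and the parts came to overlap. Sox9, Sox5 and Sox6, the transcription factors of chondrogenesis, lost a lingual difference, and Sox9 went from -0.78 to -0.24.

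**Figure D4:**
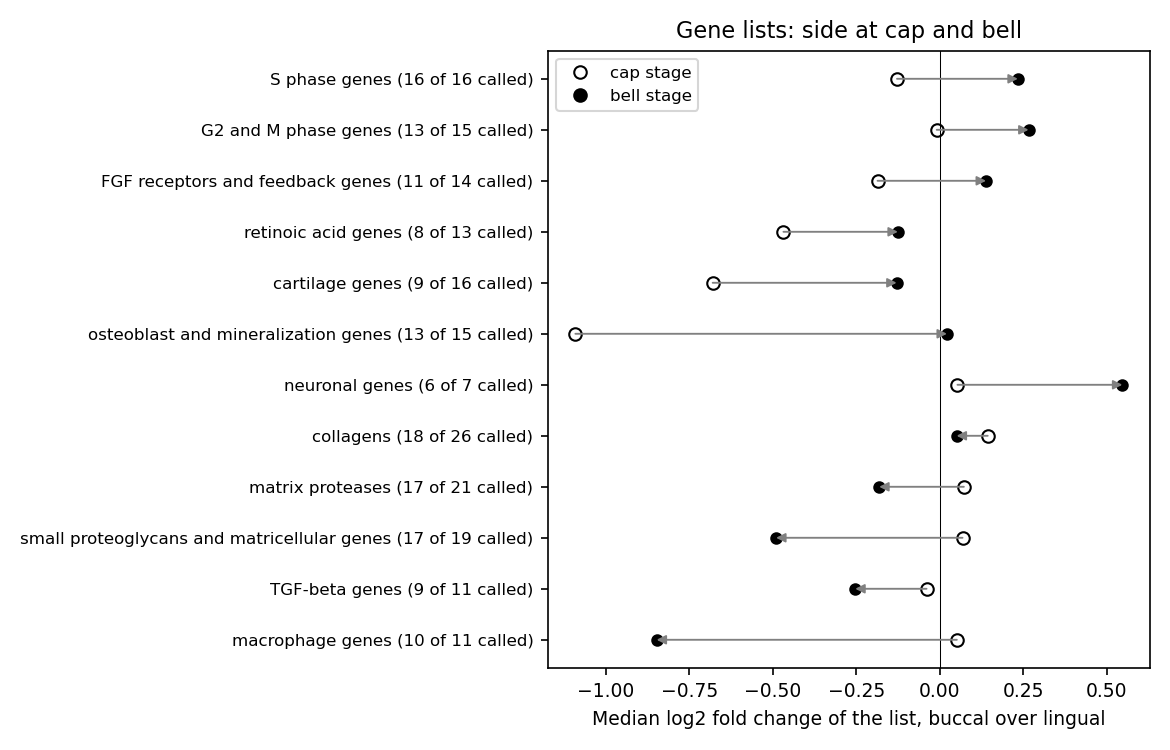
A chosen part of the 41 gene lists is shown, and others, the myogenic, Wnt ligand and odontogenic lists among them, are left out. For each list shown, the open point is the median buccal over lingual log2 fold change (x axis) at the cap stage. The filled point is the same at the bell stage, and the arrow runs from cap to bell. The number of members called by the interaction is beside the name. The osteoblast list moved from -1.09 to 0.022 and the macrophage list from 0.052 to -0.85.

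The genes that lost a lingual difference included several transcription factors. Prdm16, a chromatin and transcription regulator of the PR domain family (chr4:154400582-154721330), read 24.6, 21.5 and 26.4 CPM in Cap-L, 2.03, 2.28 and 1.99 in Cap-B, 15.8, 16 and 16.8 in Bell-L, and 15.2, 13.3 and 14.9 in Bell-B. The buccal part rose and the lingual part fell by the smaller factor, and the side difference went from -3.52 to -0.16, with an interaction of 3.36 ± 0.14 (SE, edgeR adjusted p = 4.26e-18). Foxf2, a forkhead factor of oral and facial mesenchyme, read 30.3, 29.9 and 28 CPM in Cap-L, 9.97, 9.54 and 9.35 in Cap-B, 49.5, 49.6 and 50.4 in Bell-L, and 51.4, 49.5 and 48.4 in Bell-B. The bell-stage ranges overlapped, and its neighbour in the family, Foxf1, kept part of its lingual difference (-3.12 to -1.56). Tfap2b went from -1.19 to -0.29, and Dlx5 and Dlx6, homeobox factors of the lower jaw, from -0.58 to -0.11 and from -0.80 to -0.20. Tnxb, which encodes tenascin X, and Gpr50, an orphan receptor, were the other 2 leading genes of this class, with interactions of 2.76 ± 0.20 and 2.66 ± 0.21 (SE).

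Of the 17 odontogenic transcription factors, 7 moved toward buccal and 7 toward lingual, beside 14.5% and 18% of all genes. With all 24 libraries in 1 fit, 2 were called toward each part. Osr2, a zinc finger factor that limits the tooth field in the mouse and is known for higher expression on the lingual side (chr15:35296244-35303451), read 227, 241 and 224 CPM in Cap-L, 458, 443 and 446 in Cap-B, 264, 262 and 262 in Bell-L, and 265, 269.8 and 261 in Bell-B. The libraries labelled Cap-B were above those labelled Cap-L, against the known side, and the bell-stage ranges overlapped. Its interaction was -0.94 ± 0.053 (SE, edgeR adjusted p = 8.2e-15). Lhx8, a LIM homeobox factor of oral mesenchyme, went from 0.89 to 0.38, and Pax9 kept a buccal difference (0.64 to 0.50). Bmp4, the BMP ligand known for its buccal side in molar mesenchyme, went from 0.30 to 0.49, and Bmp2 widened a lingual difference from -0.94 to -1.44. Neither of these interactions was called with all 24 libraries in 1 fit or with an interaction limit of 0.5.

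The genes that lost a buccal difference held TGF-beta and matrix genes. Of 11 TGF-beta genes tested, 9 were called, 2 toward buccal (14.5% of all genes) and 7 toward lingual (18% of all genes), with a median interaction of -0.57. Tgfb2, a ligand of the pathway (chr1:186354989-186438186), read 28.9, 29.7 and 30.5 CPM in Cap-L, 128, 133 and 124 in Cap-B, 99.5, 104 and 102 in Bell-L, and 82.9, 91 and 82 in Bell-B. The buccal part fell, the lingual part rose, and at the bell stage every Bell-L library was above every Bell-B library by a difference under the side limit (-0.25). The interaction was -2.36 ± 0.064 (SE, edgeR adjusted p = 3.42e-22). Ltbp1 and Ltbp2, which hold latent TGF-beta in the matrix, went from 1.43 to 0.064 and from 1.61 to 0.14, and Tgfbr3, the coreceptor betaglycan, from 1.05 to 0.044. Tgfbr2, the type II receptor, instead gained a lingual difference (-0.16 to -0.73).

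Among 19 small proteoglycan and matricellular genes, 17 were called (32.5% of all genes), 12 toward lingual and 5 toward buccal, and the median side difference went from 0.069 to -0.49. Dcn, the small proteoglycan decorin (chr10:97315471-97354005), read 122, 124 and 120.1 CPM in Cap-L, 546, 536 and 548 in Cap-B, 542, 549 and 534 in Bell-L, and 659, 687 and 659.8 in Bell-B. The lingual part rose to the level that the buccal part had at the cap stage, and the interaction was -1.85 ± 0.052 (SE, edgeR adjusted p = 8.37e-22). Ogn, the small proteoglycan osteoglycin, read 55.9, 60 and 58 CPM in Cap-L, 50.7, 51.3 and 47 in Cap-B, 441, 486 and 478 in Bell-L, and 147, 165 and 149 in Bell-B. It rose in both parts, and Bell-L came to stand well above Bell-B. Aspn, the related asporin, rose in both parts too, and its side difference went from 0.16 to -1.22. Matrix proteases moved likewise, with 17 of 21 called, 13 toward lingual (18% of all genes) and 4 toward buccal (14.5% of all genes). They were led by Adamts9, which cleaves proteoglycans (1.71 to -0.38, with 12% of its exon length shared with another gene). An interaction limit of 0.5 left 8 proteases toward lingual and 1 toward buccal, and all 24 libraries in 1 fit left 6 and 1. Of 26 collagens, 18 were called, 13 toward lingual and 5 toward buccal, but with an interaction limit of 0.5 the calls were 4 and 5, and with all 24 libraries in 1 fit 6 and 5. Col14a1, a fibril-associated collagen, narrowed a buccal difference from 3.93 to 1.54.

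Nfatc2, a transcription factor activated by calcineurin (chr2:168318330-168443577), was among the leading genes of the vanishing buccal class and read 7.07, 6.75 and 7.91 CPM in Cap-L, 41.8, 44.2 and 43.5 in Cap-B, 46.3, 45.4 and 45 in Bell-L, and 44.4, 43.1 and 43 in Bell-B. A change from cap to bell was called in the lingual part and not in the buccal part, and the lingual part rose to the level of the buccal one, with an interaction of -2.65 ± 0.079 (SE, edgeR adjusted p = 2.53e-21). Shisa9, an auxiliary protein of AMPA receptors, went from 3.80 to 0.049, and Snap25, a SNARE protein of synaptic vesicles, from 2.67 to 0.14. Vwde, an extracellular protein with von Willebrand and EGF domains, was at 0.124 ± 0.115 and 1.05 ± 0.0631 CPM (SD, n = 3) in Cap-L and Cap-B and at 14.4 ± 0.881 and 13.4 ± 0.622 in Bell-L and Bell-B. Its buccal difference therefore belonged to a level near the floor in Cap-L, and it rose in both parts.

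The genes that gained a lingual difference were led by Plppr4, Pax3, Zmat4 and Ryr3. Plppr4, a membrane protein related to lipid phosphatases (chr3:117112788-117154525), read 1.38, 1.48 and 1.32 CPM in Cap-L, 1.38, 1.55 and 1.55 in Cap-B, 22.6, 23.4 and 23.2 in Bell-L, and 2.3, 2.21 and 2.3 in Bell-B. Bell-L stood above the other 3 groups, which lay close together, and the interaction was -3.44 ± 0.20 (SE, edgeR adjusted p = 2.69e-14). Pax3, a paired box factor of neural crest and muscle precursors, read 10.4, 8.51 and 10 CPM in Cap-L, 11.6, 11.2 and 10.8 in Cap-B, 4.88, 5.33 and 5.33 in Bell-L, and 0.7, 0.978 and 1.05 in Bell-B. It fell in both parts and further in the buccal one, with an interaction of -2.73 ± 0.18 (SE). Zmat4, a zinc finger protein, and Ryr3, an intracellular calcium channel, had bell-stage differences of -2.19 and -2.26.

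Of the genes that gained a lingual difference, 4 that encode secreted proteins are given for their role. Dkk2, a secreted Wnt inhibitor (chr3:131791053-131886065), read 166, 155 and 159.9 CPM in Cap-L, 222, 222 and 213 in Cap-B, 365, 375 and 364 in Bell-L, and 117, 121 and 120.4 in Bell-B. It rose in the lingual part and fell in the buccal part, with an interaction of -2.07 ± 0.054 (SE, edgeR adjusted p = 2.87e-22), and its cap-stage value of 0.45 lay toward buccal, against its known side, under the side limit. Igf1, the insulin-like growth factor 1 (chr10:87694127-87772904), read 169.5, 152 and 166 CPM in Cap-L, 210.0, 215 and 216 in Cap-B, 353, 382 and 380.5 in Bell-L, and 146, 159 and 145 in Bell-B. The cap-stage libraries of the buccal part were the higher ones, by less than the side limit, and at the bell stage Bell-L was above Bell-B in every library, with an interaction of -1.71 ± 0.063 (SE, edgeR adjusted p = 4.92e-19). Sfrp2, another secreted Wnt inhibitor, of whose exon length 17.6% overlaps another gene, went from 0.38, likewise against its known side, to -0.78, and Sema3a, a repulsive guidance signal of axons, from -0.49 to -1.44.

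Macrophage genes formed a group that was higher in the lingual part at the bell stage. Of 11 tested, 10 were called, all toward lingual, beside 18% of all genes. At the bell stage, where 1482 of all 21931 genes tested were called lingual, 9 of the 11 were. Their cap-stage side differences lay between -0.47 and 0.21. Mrc1, the mannose receptor (chr2:14234203-14336868), read 23.3, 21.5 and 22.8 CPM in Cap-L, 25.4, 27.9 and 25 in Cap-B, 114, 120.0 and 116 in Bell-L, and 44, 45.5 and 41.1 in Bell-B. The cap-stage parts lay close together, both parts rose, and the lingual part rose further, with an interaction of -1.64 ± 0.074 (SE, edgeR adjusted p = 5.56e-17). The complement genes C1qa, C1qb and C1qc, which macrophages make, had interactions between -1.06 and -0.86, and Lyve1, which marks a tissue-resident macrophage subset and lymphatic vessels, had -1.23. The summed level of the list was between 103 and 107 CPM in Cap-L and 109 and 113 in Cap-B, and between 436 and 441 in Bell-L and 224 and 229 in Bell-B. The part of such cells in other genes with a lingual difference at the bell stage was not tested.

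The genes that gained a buccal difference were led by Insyn2b, Cldn11, Nxph1 and Itgb1bp2. Cldn11, a claudin of tight junctions (chr3:31204069-31218473), read 6.6, 8.45 and 7.06 CPM in Cap-L, 7.25, 7.27 and 6.49 in Cap-B, 4.88, 4.92 and 3.53 in Bell-L, and 19.3, 18.7 and 17.6 in Bell-B. The cap-stage libraries overlapped between the parts, and afterwards the buccal part rose and the lingual part fell, with an interaction of 2.16 ± 0.15 (SE, edgeR adjusted p = 9.13e-13). Nxph1, a secreted neurexin ligand, went from 0.019 to 1.80 in the same way. Itgb1bp2, the muscle protein melusin, went from 0.44 to 2.06, beside the muscle sums given above. Notum, a secreted enzyme that inactivates Wnt ligands, read 5.88, 6.64 and 6.35 CPM in Cap-L, 4.89, 5.03 and 4.1 in Cap-B, 12.8, 11.9 and 12 in Bell-L, and 19.3, 19.5 and 19.2 in Bell-B. It rose in both parts and more in the buccal one, although 38.1% of its exon length overlaps another gene.

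Cell cycle genes shifted toward the buccal part by small amounts. Of 16 S phase genes tested, 16 were called and all were toward buccal, beside 14.5% of all genes, with a median interaction of 0.33 and a median side difference that went from -0.13 at cap to 0.23 at bell. Of 15 G2 and M phase genes, 12 were called toward buccal and 1, Cenpf, toward lingual, with a median of 0.29. Ccne1, the S phase cyclin E1 (chr7:37797409-37806959), was the 1 S phase gene with a side called and read 44, 45.1 and 42.2 CPM in Cap-L, 38.5, 41.4 and 41.3 in Cap-B, 34.8, 34.9 and 34.6 in Bell-L, and 54, 57.9 and 53.9 in Bell-B. From cap to bell it changed by 0.45 in the buccal part and by -0.34 in the lingual part on the log2 scale, both under the limit, with an interaction of 0.78 ± 0.068 (SE, edgeR adjusted p = 1.33e-10). Pcna, the DNA polymerase clamp, read 27.3, 27.3 and 25.9 CPM in Cap-L, 22.4, 24.8 and 23.9 in Cap-B, 28.2, 31.1 and 27.5 in Bell-L, and 35.3, 36.5 and 35.1 in Bell-B. Its cap-stage ranges were apart with Cap-L higher, and its bell-stage ranges were apart with Bell-B higher, under the side limit in both cases, and 20.8% of its exon length overlaps another gene. Of 16 S phase genes, 2 had an interaction over 0.5, and with all 24 libraries in 1 fit 7 S phase genes and 1 G2 and M phase gene were called, with unchanged direction for all 16 S phase values. Mki67, a protein of cycling cells, had -0.10 ± 0.063 (SE, edgeR adjusted p = 0.235).

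Promoters are shown for 3 S phase genes, out of 5 with a match to the motif of the E2F factors, which control S phase genes in cycling cells. The motif was searched as TTTCCCGC, TTTCGCGC, TTTGCCGC and TTTGGCGC on both strands of the 250 bases before the start of each gene in the RefSeq promoter table (GRCm38.p6), and matches may overlap. Of the 16 S phase genes, 13 had an entry, and 5 of these (38.5%) held a match, beside 1 of 13 G2 and M phase genes (7.69%). Of all 27025 genes of the promoter table, whether tested here or not, 2.16% held a match. Capitals mark the matches, the strand is that of the gene, and the genes encode subunits of the MCM helicase that unwinds DNA, with the position of each stretch in brackets.
Mcm5 (chr8:75109259-75109508, plus strand): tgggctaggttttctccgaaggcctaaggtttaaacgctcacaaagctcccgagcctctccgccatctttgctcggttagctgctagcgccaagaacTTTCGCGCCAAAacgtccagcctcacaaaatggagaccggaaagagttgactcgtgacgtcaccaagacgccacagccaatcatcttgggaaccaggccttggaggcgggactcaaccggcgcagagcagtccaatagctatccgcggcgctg
Mcm6 (chr1:128359706-128359955, minus strand): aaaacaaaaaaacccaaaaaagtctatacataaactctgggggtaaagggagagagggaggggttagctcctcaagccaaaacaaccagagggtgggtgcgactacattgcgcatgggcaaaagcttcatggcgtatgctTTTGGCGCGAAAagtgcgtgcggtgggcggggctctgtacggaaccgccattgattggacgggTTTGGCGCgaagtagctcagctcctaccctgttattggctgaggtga
Mcm7 (chr5:138171884-138172133, minus strand): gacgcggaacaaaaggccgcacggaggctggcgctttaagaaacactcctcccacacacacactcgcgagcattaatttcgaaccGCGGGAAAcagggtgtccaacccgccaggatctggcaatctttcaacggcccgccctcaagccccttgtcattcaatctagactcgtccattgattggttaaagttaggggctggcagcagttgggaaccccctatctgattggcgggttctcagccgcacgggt
The stretches before Mcm5 and Mcm6 hold overlapping matches in both directions, and Mcm7 holds a single one. The interactions of these genes were 0.22 ± 0.052, 0.33 ± 0.051 and 0.42 ± 0.078 (SE), and 12.6% of the exon length of Mcm7 overlaps another gene. Mcm7 was not called with all 24 libraries in 1 fit. A match describes letters in the stretch and not a bound site, and a part of E2F factors in the shift was not tested.

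FGF receptors and feedback genes moved toward buccal in 9 of 14 genes, beside 14.5% of all genes, and toward lingual in 2, and the median side difference went from -0.19 to 0.14. With all 24 libraries in 1 fit, 5 of these genes were called toward buccal and 0 toward lingual. Etv4, a transcription factor induced by FGF signalling, read 34.5, 37.8 and 35.7 CPM in Cap-L, 19.4, 19.5 and 20 in Cap-B, 40.9, 36 and 37 in Bell-L, and 44.4, 44.3 and 44.2 in Bell-B. Cap-L was above Cap-B and Bell-B above Bell-L, the second difference being under the side limit (0.22). Fgfr2 and Fgfr3, receptors of the pathway, lost lingual differences (-0.85 to -0.25 and -0.53 to 0.07), with 13.9% of the exon length of Fgfr3 shared with another gene, and Fgfr1 moved the other way (-0.33). Fgf9 and Fgf20, ligands of the pathway, narrowed a buccal and lost a lingual difference at levels of a few CPM.

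Among Hedgehog pathway genes, Ptch1, the receptor and target of the signal (chr13:63656142-63721412), read 271, 239 and 287 CPM in Cap-L, 142, 142 and 135 in Cap-B, 607, 615 and 606 in Bell-L, and 578, 578 and 581 in Bell-B. It rose in both parts, and the parts did not overlap at either stage. At the bell stage the difference was -0.075, with an interaction of 0.85 ± 0.066 (SE, edgeR adjusted p = 1.14e-11). Hhip, which binds Hedgehog ligands, lost a buccal difference (1.61 to -0.058), and 7 of 11 genes of the list were called, 2 toward buccal, a share near the 14.5% of all genes, and 5 toward lingual.

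Wnt genes were divided in direction. Of 16 ligands, 4 were called toward buccal and 5 toward lingual, and of 11 secreted inhibitors 4 and 5, beside 14.5% and 18% of all genes. With all 24 libraries in 1 fit, the ligands called were 1 and 2, and the inhibitors 3 and 5. Wnt5a, a noncanonical ligand, read 122, 117 and 125 CPM in Cap-L, 207, 213 and 205 in Cap-B, 252, 258 and 262 in Bell-L, and 263, 259 and 248 in Bell-B. The lingual part rose, the ranges overlapped at the bell stage, and the buccal excess of the cap stage was no longer called, with an interaction of -0.78 ± 0.055 (SE, edgeR adjusted p = 1.16e-12). Wnt10a and Wnt10b lost lingual differences, from -0.66 to 0.43 and from -1.68 to -0.35, and Tcf7, a transcription factor of the pathway, from -1.06 to 0.21. Wnt10a was not called with all 24 libraries in 1 fit. The part of epithelial cells in these Wnt values was not tested.

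Myogenic regulators were divided. Of 17 tested, 14 were called, 6 toward buccal and 8 toward lingual, beside 14.5% and 18% of all genes. The median side difference went from 3.11 to 2.20, with 7 narrowing, 3 appearing and 2 vanishing. With all 24 libraries in 1 fit, 4 were called toward buccal and 5 toward lingual. With at least 10 counts required in every library, 11 were tested, 6 called toward buccal and 4 toward lingual, and the median interaction was 0.32 in place of -0.59. The summed level of the list was between 374 and 410 CPM in Cap-L, 352 and 360 in Cap-B, 317 and 320 in Bell-L, and 490 and 499 in Bell-B. Myod1, a master regulator of skeletal muscle (chr7:46025898-46028523), read 0.435, 0.474 and 0.535 CPM in Cap-L, 14.4, 13 and 13.1 in Cap-B, 5.86, 4.95 and 5.5 in Bell-L, and 34.5, 34 and 33.7 in Bell-B. It rose in both parts, in the lingual part by the larger factor, with an interaction of -2.15 ± 0.18 (SE, edgeR adjusted p = 1.35e-10). Myog, the regulator of muscle differentiation, narrowed from 3.58 to 2.05. Those toward buccal included Chrdl2, Dll1, Mef2c and Heyl, which are also used outside muscle. Contractile genes went in both directions, with 8 called toward buccal and 9 toward lingual, such as Myl4, an embryonic myosin light chain (0.75 to 2.53), and Actc1, the cardiac actin of embryonic muscle (4.17 to 3.00).

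Epithelial genes were present in all 4 groups, at a sum between 779 and 836 CPM in Cap-L, 535 and 561 in Cap-B, 1380 and 1450 in Bell-L, and 915 and 948 in Bell-B. Of 18 tested, 11 were called, 7 toward buccal and 4 toward lingual, beside 14.5% and 18% of all genes. Where 1539 of all 21931 genes tested were called lingual at cap and 1482 at bell, 12 and 11 of the 18 were. With all 24 libraries in 1 fit, 2 were called toward buccal and 0 toward lingual. Ambn, the enamel matrix gene ameloblastin, narrowed a lingual difference from -2.65 to -0.61. Endothelial genes were called in 3 of 13 cases, 23.1% beside 32.5% of all genes. The part of these cells in the interactions was not tested.

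After 2 days of culture, the side of the cap-stage parts was measured in 6 libraries that the interaction did not use. Of 21195 genes tested there, 2658 were called buccal (12.5%) and 2657 lingual (12.5%) at the limits of the side calls. Of the genes that lost a lingual difference in the embryo, 283 of the 547 tested (51.7%) were called lingual after culture and 38 (6.95%) buccal. Of those that lost a buccal difference, 375 of 882 (42.5%) were called buccal and 62 (7.03%) lingual. Of the genes that gained a lingual difference, 248 of 440 (56.4%) were called lingual and 19 (4.32%) buccal, and of those that gained a buccal one, 109 of 216 (50.5%) were called buccal and 27 (12.5%) lingual. In these 4 classes, the share on the named side stood above, and the share on the other side at or under, the 12.5% of all genes. Among called genes with the same side at both stages, the share on the named side was higher still. It was 85.7% for widening lingual, 93.8% for widening buccal, 89.4% for narrowing lingual and 82.4% for narrowing buccal genes. The genes that reversed were divided, with 29 lingual and 18 buccal among 74 that reversed to lingual, and 10 buccal and 13 lingual among 35 that reversed to buccal.

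**Figure D5:**
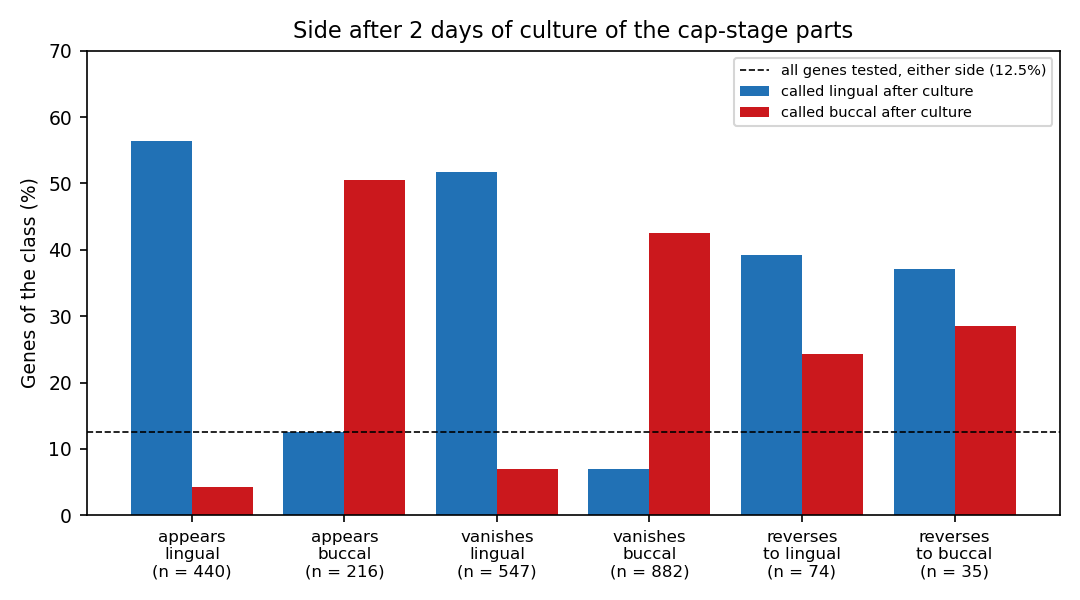
Bars give the share (%) of the genes of each class that were called lingual (blue) or buccal (red) in the cap-stage parts after culture, 3 libraries a part, with the number of genes tested in brackets, and the dashed line marks the share of all genes tested called on either side (12.5% each). In the 4 classes that appear or vanish, the bar of the side that the class names is the taller one.

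Single genes showed both outcomes. Prdm16 and Ibsp, which lost their lingual difference in the embryo, had cultured side differences of -3.07 and -3.30 (edgeR adjusted p = 3.95e-20 and 2.08e-27). Fgf3 and Ano1, which reversed to buccal, were lingual after culture at -4.17 and -2.82, and Avpr1a and Mybpc1, which reversed to lingual, were buccal at 2.47 and 2.97. Scg2 and Wnt11 were lingual after culture (-1.88 and -1.67), on the side of the bell stage, and Nptx1 was buccal (1.03), also on the side of the bell stage. Plppr4 and Igf1, which gained a lingual difference, were lingual at -1.36 and -1.31. Whether culture changed the side difference was not tested for these genes.

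Of the genes that the study named for a side, 47 were tested and 38 were called by the interaction, 19 toward each part, beside 32.5% of all genes, and since the study chose them on these libraries their number is not independent evidence. A side vanished for 14 of them and narrowed for another 14, appeared for 5, widened for 2 and reversed for 1. Postn, the matricellular periostin of periodontal tissue, kept a lingual difference, from -1.10 to -1.40, at 3519 CPM in Bell-L. Tbx18, a T-box factor of mesenchyme that the study's text named as higher at the cap than at the bell stage, narrowed a buccal difference from 5.04 to 2.90. Of its exon length, 20.6% overlaps another gene.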

How the data were processed

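Read pairs per gene were counted in 24 libraries, of which the 12 of the uncultured parts (4 groups of 3) entered the interaction and the 6 of the cultured parts a separate fit. The authors deposited whole-number counts without normalization, made with featureCounts of Subread 2.0.0 over the exons of each gene of Ensembl release 107 (GRCm39), per the file headers, without strand, leaving out pairs with more than 1 alignment or more than 1 matching gene. The study's methods name the same Subread version and annotation release for alignment and quantification in one passage and STAR in another, and the submitters' processing notes also list Bowtie. Genes that overlap or have near-identical copies are undercounted. Symbols were matched for 56017 of 56748 genes from the GENCODE vM39 annotation.

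From these counts, TMM-scaled CPM and quasi-likelihood tests were computed with edgeR 4.0.16 in R 4.3.3 after the filterByExpr filter, with 4 group means and no replicate block. The interaction was called at an adjusted p under 0.05, and side and stage at the same limit with a log2 difference beyond 0.5 either way, from the same fit. Standard errors are the absolute log2 value divided by the square root of F. The floor is 3 counts a library, between 0.0837 and 0.138 CPM at 21663852 to 35222686 counts, and covers counting error only.

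Genes are named by a rule: in each class and direction the 4 with the largest absolute interaction whose average log2 CPM was 2 or more, without overlap of the parts where a side was called, in each of 41 lists up to 4 called members, the genes the study named for a side, and defining markers of cell types. Some further list members, such as Col2a1, Sox9, Mcm5 and Mcm6, are named for their role and were chosen after their values were seen. The members and lists were chosen with earlier results of these data known. The pipeline was tested on simulated counts. Alternatives were RLE factors, DESeq2 1.42.0, other filters, scalings and limits, a joint fit of all 24 libraries, a replicate block, and each library left out in turn.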

Additional observations from a re-analysis of the deposited data

Results flagged for a closer look

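The side difference itself differed between the stages, by the interaction test of edgeR with adjustment over all genes, for 3180 genes toward the buccal part and 3957 toward the lingual part. Sides were called on opposite parts at the 2 stages for 89 genes that reversed to lingual and 36 that reversed to buccal. Among the genes that reversed to lingual, the interaction was -4.94 for Avpr1a, -4.62 for Mybpc1, -3.95 for Mrgprf and -3.83 for Scg2. Among those that reversed to buccal it was 2.86 for Col9a1, 2.60 for Fgf3, 2.57 for Ano1 and 1.91 for Nptx1. No test of single outlying libraries was made, and each library was left out in turn instead.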

How the results depend on the processing

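Genes named outside the rule, such as Col2a1, Sox9, Mcm5 and Mcm6, were not followed one by one under the alternatives. Of 203 genes named by the rule, 186 were tested under every alternative and 134 of these kept their call and direction throughout. The other 17, Mmp13 and Vwde among them, fell under the filter of at least 10 counts in every library, and 13 of them kept both where tested. In all, 56 lost the call under at least 1 alternative, and 0 reversed by edgeR or DESeq2. Those that lost it with all 24 libraries in 1 fit include Bmp2, Bmp4, Dlx6, Edar, Cyp26a1, Fgf9, Fgfr3, Wnt10a, Pcna, Postn and Hba-a1. With all 24 libraries in 1 fit, the counts fell to 1184 genes toward buccal and 1397 toward lingual, with 234 appearing lingual, 108 appearing buccal, 364 vanishing lingual, 562 vanishing buccal, 49 reversing to lingual and 16 reversing to buccal, and the cause was not tested. An interaction limit of 0.5 left 1160 toward buccal and 1931 toward lingual, and an adjusted p limit of 0.01 left 2097 toward buccal. Without a fold limit for the side calls, 841 genes appeared lingual, 573 appeared buccal, 1468 vanished lingual, 1687 vanished buccal, 529 reversed to lingual and 415 reversed to buccal. With a fold limit of 1 these counts were 169, 102, 321, 637, 19 and 5. Under RLE factors, DESeq2, other filters on low counts and other scalings, the counts of calls and of these classes stayed within 1.5 times, and the share of calls toward lingual, 55.4% as reported, lay between 48.3% and 55.4%.

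Without 1 library, between 2742 and 3557 genes were called toward buccal and between 3357 and 3929 toward lingual. The classes then ranged from 408 to 456 genes (appearing lingual), 186 to 233 (appearing buccal), 532 to 606 (vanishing lingual), 929 to 1115 (vanishing buccal), 76 to 87 (reversing to lingual) and 28 to 40 (reversing to buccal), and 5043 of the 7137 genes were called in all 12 such fits. Deviations from the group means had a mean correlation of -0.0252 between same-numbered libraries of different groups (from -0.211 to 0.178 over 18 pairs). Between differently numbered ones it was 0.0125 (36 pairs). The deviations in a group sum to about 0, which ties these means together, so the check cannot tell whether same-numbered libraries share litters. With the replicate block, 3058 genes were called toward buccal and 3821 toward lingual. The median of the contractile muscle list, 0.15, was -0.012 without Cap-L replicate 1 and -0.16 without Cap-L replicate 2, and that of the Wnt ligands, -0.14, was 0.0012 with at least 10 counts in every library and 0.039 without Cap-B replicate 2. After culture, the counts on the named side changed by at most 6 genes with RLE factors or the block. At depths between 21663852 and 35222686 counts, differences between levels under the floor of 0.0837 to 0.138 CPM were not detectable.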

Other observations

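Guidance genes were called in both directions, where 14.5% of all genes tested were called toward buccal and 18% toward lingual. Of 21 semaphorins and their receptors, 15 were called, 11 toward lingual and 4 toward buccal, and Nrp1, the receptor neuropilin 1, lost a buccal difference (1.37 to 0.41), as did Plxna4, a plexin receptor (1.88 to 0.33). Of 27 ephrins, Slits and netrins, 17 were called, 8 toward buccal and 9 toward lingual, and Dcc, the netrin receptor, reversed from buccal to lingual (1.54 to -0.56), with means of 12.9 ± 1.43, 37.4 ± 0.724, 16.8 ± 0.932 and 11.4 ± 0.846 CPM (SD, n = 3) in Cap-L, Cap-B, Bell-L and Bell-B, while Ntn1, its ligand netrin 1, narrowed a buccal difference (2.83 to 1.58). Of 7 neuronal genes, 5 were called toward buccal and 1 toward lingual, and Nefm, a neurofilament subunit of which 19.2% of the exon length overlaps another gene, fell in both parts and gained a buccal difference (0.28 to 1.43). The summed level of the neuronal list was between 64.4 and 65.3 CPM in Cap-L, 81.9 and 83.7 in Cap-B, 29 and 32.3 in Bell-L, and 52.3 and 52.7 in Bell-B, and with all 24 libraries in 1 fit 2 of the list were called toward buccal and 1 toward lingual.

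Of 13 retinoic acid genes, 7 were called toward buccal and 1 toward lingual, where 14.5% and 18% of all genes tested were called. With all 24 libraries in 1 fit, 4 were called toward buccal and 0 toward lingual. Aldh1a2, which makes retinoic acid, lost a lingual difference (-1.11 to 0.047), and Crabp1 and Cyp26a1, which bind and degrade it, narrowed theirs (-2.05 to -0.66 and -2.97 to -1.56). Of 12 Notch pathway genes, 6 were called toward buccal and 1 toward lingual, and with all 24 libraries in 1 fit 1 was called. All 6 ectodysplasin pathway genes tested were called, 4 toward buccal and 2 toward lingual, and Edar, the receptor, lost a lingual difference (-1.60 to -0.36). Of 10 erythroid genes, 5 were called toward lingual with small values, such as -0.37 for Hba-a1, a haemoglobin chain with a near-identical copy, Hba-a2, and an interaction limit of 0.5 left none of them by edgeR. In the uncultured bell-stage libraries, the summed level of that list was between 5530 and 5920 CPM in Bell-B and 6590 and 6960 in Bell-L.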
